A study of Mus musculus with 14 samples.

Results

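Marrow cells of mice that received a radiolabelled IgG without a target (IgG radioimmunotherapy, IgG RIT, 3 libraries) were compared across all genes with cells of mice irradiated from outside with a Cesium source (Cesium total body irradiation, TBI, 5 libraries). The libraries were chosen by their treatment label and make 8 of the 14 of the series. All mice carried a Cdh5 CRE transgene, in which a promoter of endothelial cells drives Cre recombinase, and a Rosa26 TdTomato reporter that Cre switches on. The cells were harvested 8 days after treatment and sorted as negative for lineage markers and CD45 and positive for TdTomato. TBI mice had received 500 cGy, and IgG RIT mice 20 µCi of the IgG. An absorbed dose and an injected activity are different quantities, and the sources used here give no absorbed dose for IgG RIT, so the doses cannot be set side by side. The other libraries were 4 from untreated mice, given here as background levels only, and 2 from CD45-targeted radioimmunotherapy. Age, strain background, the radionuclide, and whether each library came from 1 animal are not given in the sources used here, so p-values measure the spread between these libraries.

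In radioimmunotherapy an antibody carries a radionuclide through the blood, and dose builds up over the time the antibody circulates and decays, whereas external irradiation delivers its dose within minutes. An IgG without a target in the mouse serves as the control for exposure from circulating activity. Marrow is among the most radiation-sensitive tissues: dividing blood cell precursors are lost first, and recovery begins with erythroid and other progenitors. Type I interferons are secreted signals that act through the receptor chains Ifnar1 and Ifnar2 and through a complex that contains Irf9 and binds interferon-stimulated response elements in the promoters of antiviral genes.

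Total counts were 21657745 to 22924390 in IgG RIT, 19565509 to 24941973 in TBI replicates 1, 3, 4 and 5, and 16412779 in TBI replicate 6, the shallowest library of the series. Replicate 2 of TBI was not analysed here. Levels of 3 counts or fewer in a library were treated as the floor. The library labelled TBI replicate 6 stood with the IgG RIT libraries and not with the other TBI libraries. Across 18091 genes its log2 counts-per-million values (CPM) correlated at 0.927 to 0.930 with IgG RIT and at 0.897 to 0.909 with the other TBI libraries, which correlated with each other at 0.954 to 0.979. The IgG RIT libraries correlated with each other at 0.913 to 0.916. On the first principal component of the 8 libraries (48.9% of the variance) IgG RIT lay at 60.0 to 111, TBI replicate 6 at 57.7, and the other TBI libraries at -82.8 to -79.6. No 2 libraries were close enough to be 1 library counted again: the closest pair, TBI replicates 3 and 5, had a chi-square of 17.1 per gene. Untreated libraries and the TBI replicates 1, 3, 4 and 5 carried library numbers under 10, and TBI replicate 6 and all RIT libraries numbers from 10 up. The labels do not call this number a batch. Without TBI replicate 6, library number and treatment cannot be told apart. Counts of called genes are therefore given with all TBI libraries and without replicate 6, as stated at each comparison.

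Cdh5, the gene of VE-cadherin whose promoter drives the reporter, had 0 counts in every IgG RIT library and in TBI replicates 4, 5 and 6, and 3 and 5 counts in TBI replicates 1 and 3. Kdr, a receptor for vascular endothelial growth factor, was between 0 and 1.19 CPM in all 8. Other endothelial transcripts were present: Egfl7, a factor that endothelium secretes, was at 13.7 to 59.3 CPM and Pecam1, an adhesion molecule, at 3.16 to 28.4 CPM. The 25 genes of an endothelial marker list summed to 85.0 to 96.4 CPM in IgG RIT, 173 to 194 CPM in TBI replicates 1, 3, 4 and 5, 88.8 CPM in TBI replicate 6 and 501 to 572 CPM in untreated libraries. Genes of red cell precursors made up 16.7% to 17.7% of all counts in IgG RIT, 4.21% to 6.55% in TBI replicates 1, 3, 4 and 5, 21.3% in TBI replicate 6 and 1.76% to 2.47% in untreated libraries. Fewer cells of a type and less RNA per cell cannot be told apart in these bulk samples. Xist, expressed from the inactive X chromosome of females, was at 0.116 CPM in IgG RIT replicate 1, 0.920 CPM in TBI replicate 1 and 2.58 CPM in TBI replicate 6, and at 139 CPM or more in the other 5 libraries. The Y-linked Ddx3y was present in the same 3 libraries, at 68.9, 49.8 and 61.3 CPM. Both groups therefore held libraries with male and with female transcripts.

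IgG RIT and TBI differed in 52 of 21509 tested genes (0.242%), of which 15 were higher (0.0697%) and 37 lower (0.172%) after IgG RIT. The test was edgeR's quasi-likelihood test on all 14 libraries with Benjamini-Hochberg adjustment, and a gene was called at an adjusted p under 0.05. The higher genes included 4 of the interferon response, and the lower ones 3 of eosinophils. The groups did not overlap for any of the 52. In 24 of the 37 lower genes all IgG RIT libraries were at or under 3 counts. The IgG RIT libraries had counts for 21660 to 22222 genes, TBI replicate 6 for 22123 and the other TBI libraries for 23696 to 26752. The part of this difference in the absent genes was not tested.

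The count of 52 rests on few libraries. Without TBI replicate 6 it was 2025, without IgG RIT replicates 1, 2 or 3 it was 9, 2 or 65, and without TBI replicates 1, 3, 4 or 5 it was 12, 9, 9 or 17. The 2 CD45 RIT libraries enter the shared estimate of spread, and without them 2495 genes were called, among them all 52. A term for library number set IgG RIT against TBI replicate 6 alone, the only TBI library numbered from 10 up. It could therefore not adjust the comparison with all TBI libraries. The log2 fold change of Irf7 in that fit was 1.85.

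Of 55 tested genes of an interferon response list, 4 were called higher and 0 lower after IgG RIT, 35 had a positive log2 fold change, and 26 were higher in all 3 IgG RIT libraries than in any TBI library, against 8.37% of all genes; 0 of the 55 were lower without overlap, against 8.44% of all genes. The median log2 fold change of the list was 0.73, against -0.16 over all tested genes. The 4 called genes were Irf7, Irf9, Ifi27 and Ifi35.

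Irf7, the transcription factor that amplifies type I interferon production, had 161, 167 and 194 CPM in the 3 IgG RIT libraries. In TBI it had 17.6, 33.9, 30.2, 38.0 and 48.2 CPM, the last in replicate 6, and in untreated libraries 24.02 to 39.1 CPM. All IgG RIT libraries were thus far above all TBI libraries, whose range enclosed that of the untreated ones. The log2 fold change was 2.37 (SE 0.29, adjusted p 0.0176). Irf7 (ENSMUSG00000025498.15) lies on GRCm38 chromosome 7, 141262706 to 141266481, on the minus strand.

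Irf9, the DNA-binding subunit of the interferon-activated complex (ENSMUSG00000002325.15, chromosome 14, 55603571 to 55610030), had 207, 161 and 189 CPM in IgG RIT. In TBI it had 49.3, 67.2, 64.6, 72.1 and 63.7 CPM, with replicate 6 inside the range of the other 4. Untreated libraries, at 41.1 to 82.6 CPM, enclosed the TBI values. The log2 fold change was 1.55 (SE 0.22, adjusted p 0.0176).

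Ifi27, which encodes a small interferon-induced membrane protein (ENSMUSG00000064215.13, chromosome 12, 103434211 to 103440239), had 148, 178 and 191 CPM in IgG RIT. It had 45.1, 63.8, 59.5, 73.7 and 37.5 CPM in TBI, and replicate 6 was the lowest of all 8 libraries. Untreated libraries, at 68.0 to 109.5 CPM, overlapped TBI and were below IgG RIT. The log2 fold change was 1.62 (SE 0.24, adjusted p 0.0180). Ifi35, another interferon-induced gene (ENSMUSG00000010358.13, chromosome 11, 101448407 to 101458698), had 102, 141 and 142 CPM in IgG RIT and 54.5 to 63.7 CPM in the 5 TBI libraries; its difference was 1.08 on the log2 scale (SE 0.17, adjusted p 0.0215). Its untreated levels of 67.0 to 78.0 CPM were above all TBI libraries and below IgG RIT. The groups did not overlap for either gene. TBI replicate 6, in which erythroid genes made up 21.3% of counts, was below the other TBI libraries for Ifi27 and just above them, at 63.7 CPM, for Ifi35.

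The call of Irf7 was lost in 1 of 8 leave-one-out fits, without IgG RIT replicate 2 (adjusted p 0.0534). The calls of Irf9 and Ifi27 were each lost in 5 of 8, with adjusted p up to 0.0631 and 0.0651. These were the fits without IgG RIT replicates 1 or 2 and without TBI replicates 1, 3 or 4. Ifi35 lost its call in 6 of 8, with adjusted p up to 0.109, and kept it without IgG RIT replicate 1 or without TBI replicate 6.

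Without TBI replicate 6, 14 of the 55 genes were called higher and 2 lower, against 3.76% and 5.68% of all genes. The median log2 fold change was 0.72. Then 28 genes were higher and 12 lower without overlap, against 15.7% and 25% of all genes. The higher genes were Rsad2, Isg15, Oasl2, Ifit1, Irf7, Ube2l6, Oas3, Usp18, Irf9, Ifi27, Ifitm3, Ifi35, Ifnar2 and Igtp. Rsad2, the antiviral enzyme viperin, had 2063, 1206 and 1242 CPM in IgG RIT and 104 to 240 CPM in these 4 TBI libraries (log2 fold change 3.05, SE 0.44, adjusted p 0.00312), against 39.96 to 107 CPM in untreated libraries. TBI replicate 6 had 733 CPM, between the groups. Isg15, a ubiquitin-like protein that is attached to other proteins, had 318 to 363 CPM in IgG RIT and 23.2 to 64.2 CPM in the 4 TBI libraries (3.05, SE 0.42, adjusted p 0.00255), with 149 CPM in replicate 6. The enzyme that attaches it, Ube2l6, is also on the list of late red cell genes, and at 2094 CPM in TBI replicate 6 it exceeded the 1520 to 1913 CPM of IgG RIT. Oasl2, a member of the oligoadenylate synthetase family, had 12.2 to 33.6 CPM in IgG RIT and 2.55 to 5.34 CPM in the 4 TBI libraries (2.64, SE 0.47, adjusted p 0.00709). Its untreated levels of 7.42 to 22.8 CPM were above these TBI libraries and overlapped IgG RIT. The 2 lower genes were Irf1 and Tap1. Tap1, a peptide transporter of antigen presentation, had 29.6 to 34.97 CPM in IgG RIT and 53.2 to 62.6 CPM in the 4 TBI libraries (-0.89, SE 0.15, adjusted p 0.00609). In TBI replicate 6 it was at 17.2 CPM, under all other libraries of both groups. With the erythroid sum as a covariate and without replicate 6, 0 of 53 tested genes of the list were called and the list's median was -0.47. The differences of Isg15 (-0.56), Irf9 (-0.095) and Rsad2 (-0.011) then turned sign. The erythroid sums of the groups do not overlap without replicate 6, so that covariate and treatment can hardly be told apart.

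**Figure D1:**
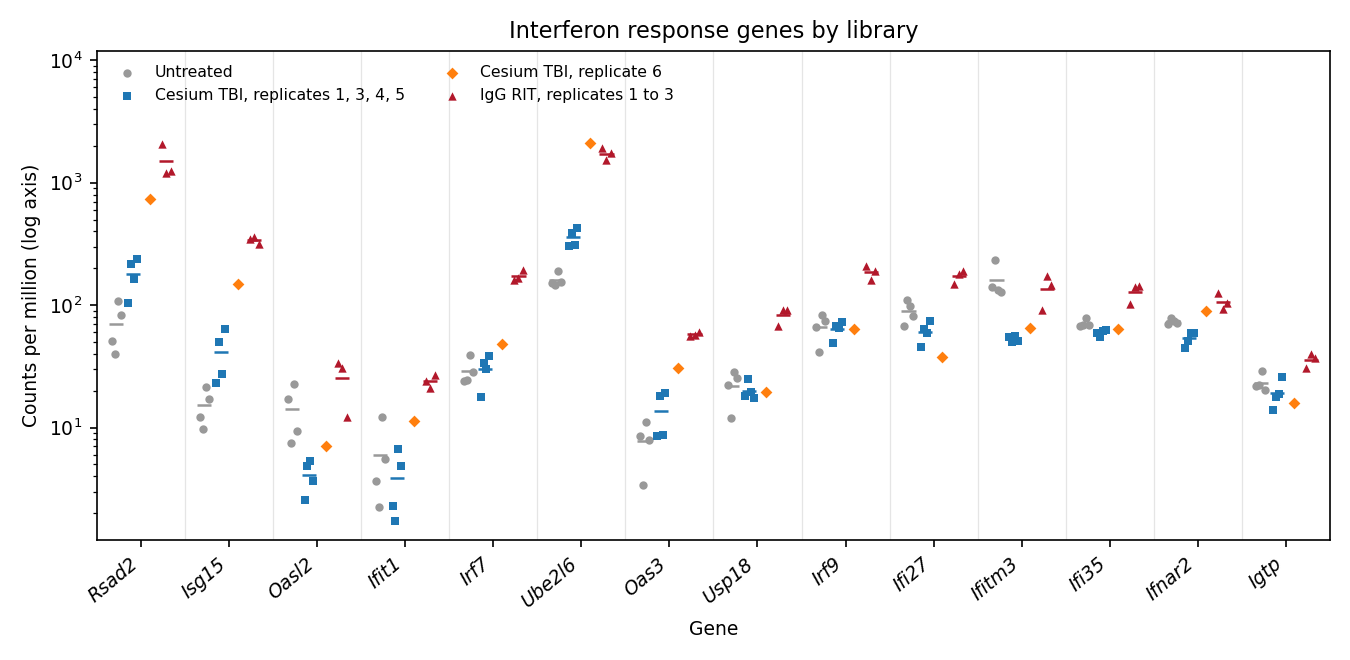
CPM (log axis) of the 14 interferon response genes that were called higher without TBI replicate 6, ordered by log2 fold change; each point is 1 library and bars are group means. Grey circles are untreated, blue squares TBI replicates 1, 3, 4 and 5, orange diamonds TBI replicate 6 and red triangles IgG RIT. Irf7 was at 161 to 194 CPM in IgG RIT and at or under 48.2 CPM in all TBI libraries, while Ube2l6 was as high in TBI replicate 6 as in IgG RIT.

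Promoters of the list's genes were searched for the core of the interferon-stimulated response element, GAAA followed by any 2 bases and GAAA, on both strands, in RefSeq windows from 250 bases before to 50 bases after the start site (GRCm38.p6). Of the 55 genes 41 had a window, and 19 of these (46.3%) held the motif, against 3.99% of all 27025 symbols with a window. The list is made of genes known to respond to interferon, so this share does not bear on the difference between the treatments. Of the 14 called genes 12 had a window, and 6 of these (50%) held the motif, a share near that of the whole list. The 6 were Rsad2, Isg15, Ifit1, Oas3, Ifitm3 and Igtp. The stretches around the matches are shown because these 6 genes rose without TBI replicate 6 and carry the letters the Irf9-containing complex is known to bind; the motif is in capitals, overlapping matches run together, and each stretch reads in the direction of its gene. Motifs on the other strand appear as TTTC, 2 bases and TTTC. The windows of Irf7, Irf9 and Ifi35 did not hold these letters, and a match is a description, not a measured binding site.
Isg15, chr4:156200840-156200931, minus strand: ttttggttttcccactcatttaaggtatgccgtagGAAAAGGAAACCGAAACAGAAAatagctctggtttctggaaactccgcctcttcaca
Ifit1, chr19:34640750-34640848, plus strand: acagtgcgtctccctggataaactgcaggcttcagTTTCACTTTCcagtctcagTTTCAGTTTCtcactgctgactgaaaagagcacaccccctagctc
Rsad2, chr12:26456528-26456607, minus strand: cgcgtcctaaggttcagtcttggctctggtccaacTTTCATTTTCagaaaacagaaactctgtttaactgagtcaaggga
Oas3, chr5:120777690-120777769, minus strand: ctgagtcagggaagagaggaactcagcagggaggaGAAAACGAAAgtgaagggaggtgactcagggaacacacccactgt
Ifitm3, chr7:141010695-141010777, minus strand: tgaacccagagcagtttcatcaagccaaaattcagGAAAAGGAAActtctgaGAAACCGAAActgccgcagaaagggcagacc
Igtp, chr11:58199487-58199566, plus strand: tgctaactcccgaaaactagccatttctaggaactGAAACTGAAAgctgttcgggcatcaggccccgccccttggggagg

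Within the printed stretches, Isg15 held 3 overlapping matches in 1 run, and Ifit1 and Ifitm3 held 2 matches each. Rsad2, Oas3 and Igtp held 1 each there. The genes with the motif did not move by the same amount. Ifit1, which binds foreign RNA, had 21.1 to 26.7 CPM in IgG RIT, 1.73 to 6.68 CPM in TBI replicates 1, 3, 4 and 5 and 11.4 CPM in replicate 6. Its log2 fold change was 2.16 (adjusted p 0.130) with all TBI libraries and 2.63 (adjusted p 0.0342) without replicate 6. Igtp, a GTPase induced by interferon, differed by 0.96 (adjusted p 0.0874) and 0.91 (adjusted p 0.0429) in the same order.

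Other called genes were higher with all TBI libraries. H2afx, the histone variant that is phosphorylated at DNA breaks, had 1006, 984 and 1315 CPM in IgG RIT (ENSMUSG00000049932.3, chromosome 9, 44334694 to 44336077). In TBI it had 315, 375, 278, 353 and 671 CPM, the last in replicate 6, which lay between the groups. The log2 fold change was 1.47 (SE 0.25, adjusted p 0.0381), and 1.74 without replicate 6. Gm44335, annotated as a microRNA, lies within it on the other strand and was called as well (1.52, SE 0.24); as strand use in the counting is not stated, the reads of the 2 cannot be told apart. Malat1, an abundant nuclear long noncoding RNA, had 6118 to 7115 CPM in IgG RIT and 1275 to 2197 CPM in TBI replicates 1, 3, 4 and 5, with 3803 CPM in replicate 6 (1.57, SE 0.27, adjusted p 0.0383), and the same holds for Gm37376, which lies within it on the other strand (1.59, SE 0.26). Srrm1, a splicing coactivator, had 367 to 400 CPM in IgG RIT and 187 to 255 CPM in TBI (0.86, SE 0.15, adjusted p 0.0381). Ccdc34, which encodes a coiled-coil protein, had 217 to 257 CPM and 58.7 to 138 CPM (1.42, SE 0.24, adjusted p 0.0381). The calls of H2afx, Malat1, Srrm1 and Ccdc34 were each lost in 7 of 8 leave-one-out fits (adjusted p up to 0.123) and held without TBI replicate 6.

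Genes of replication-dependent histones and of mitosis were called only without TBI replicate 6. Of 26 histone genes, 17 were higher in every IgG RIT library than in any of the 5 TBI libraries, against 8.37% of all genes, and the median log2 fold change was 1.34, against -0.16 over all tested genes; without replicate 6, 6 were called higher, against 3.76% of all genes, and 0 lower. Of 30 mitosis genes, 16 were higher without overlap, with a median of 0.66, and 10 were called higher and 0 lower without replicate 6. Summed levels of the histone list were 1248 to 1518 CPM in IgG RIT, 354 to 559 CPM in TBI replicates 1, 3, 4 and 5, 868 CPM in replicate 6 and 388 to 556 CPM in untreated libraries. The linker histone gene Hist1h1c had 103 to 131 CPM in IgG RIT and 20.7 to 36.2 CPM in the 4 TBI libraries (2.09, SE 0.26, adjusted p 0.00164), with 108 CPM in replicate 6. Cenpf, a kinetochore protein of dividing cells, had 437 to 534 CPM and 133 to 202 CPM (1.51, SE 0.25, adjusted p 0.00543), with 334 CPM in replicate 6. The proliferation marker Mki67 had 1800 to 2205 CPM in IgG RIT, 465 to 690 CPM in the 4 TBI libraries and 1405 CPM in replicate 6, and was not called (adjusted p 0.502 with and 0.387 without replicate 6). Histone reads can be split between near-identical copies, and levels of single histone genes are uncertain in that respect.

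Col9a2, a chain of type IX collagen of cartilage, had 109, 168 and 63 counts in IgG RIT and 1, 0, 0, 1 and 0 counts in TBI. Cnmd, chondromodulin, had 31, 145 and 61 counts in IgG RIT and at most 3 counts in any TBI library. No TBI library was above the floor, and the counts in IgG RIT alone were enough to pass the filter on low counts. As both genes passed through the group where they were high, their calls are no support for a difference. Their values are a description. Untreated libraries held at most 0.312 CPM of Col9a2 and 0.173 CPM of Cnmd, under the 3.31 to 8.37 CPM and 1.79 to 7.22 CPM of IgG RIT. Both were among the 52 called genes and lost that call in 6 of 8 leave-one-out fits (adjusted p up to 0.0917 and 0.14). Sod3, the extracellular superoxide dismutase, had 2.64 to 5.10 CPM in IgG RIT and 0.237 to 0.861 CPM in TBI (2.58, SE 0.39, adjusted p 0.0204), while untreated libraries, at 3.80 to 5.91 CPM, overlapped IgG RIT. Its call was lost in 5 of 8 such fits, without IgG RIT replicates 1 or 2 or TBI replicates 1, 3 or 4 (adjusted p up to 0.0751).

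Of 17 tested genes of a basophil, mast cell and eosinophil list, 3 were called lower, against 0.172% of all genes, and 0 higher with all TBI libraries. The median log2 fold change was -2.24, against -0.16 over all genes. Ear2, an eosinophil ribonuclease, had 0 counts in the 3 IgG RIT libraries and 175, 585, 432, 847 and 66 counts in TBI, and was at least 100-fold lower after IgG RIT against a floor of 3 counts per library (adjusted p 0.0176). Its near-identical copy Ear1 had 2, 0 and 0 counts in IgG RIT and 91 to 779 counts in TBI (adjusted p 0.0176), and reads of the 2 genes may have been split between them in the counting. Siglecf, the sialic acid receptor that marks eosinophils, had 0 counts in IgG RIT and 6 to 92 counts in TBI, at least 15.3-fold lower (adjusted p 0.0427). Epx, eosinophil peroxidase, had 0.0579, 17.0 and 2.05 CPM in IgG RIT and 34.5 to 182 CPM in TBI, and was called only without replicate 6 (-4.45, SE 1.21, adjusted p 0.0424), and then in 2 of 7 leave-one-out fits. The summed list was 29.1 to 404 CPM in IgG RIT, 797 to 2123 CPM in TBI replicates 1, 3, 4 and 5, 319 CPM in replicate 6 and at least 8234 CPM in untreated libraries, so both treatments were under the untreated level. Eosinophils carry CD45, on which cells were sorted out. Ear2 lost its call without IgG RIT replicates 1 or 2 and without TBI replicates 3 or 4 (adjusted p up to 0.0534), Ear1 without IgG RIT replicate 2, and Siglecf in 7 of 8 leave-one-out fits (up to 0.123).

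Other lower genes were at or near 0 counts in IgG RIT. Cd274, the immune checkpoint ligand PD-L1, had 0 counts in all IgG RIT libraries and 30 to 99 counts in the 5 TBI libraries and was at least 15.9-fold lower (adjusted p 0.0176). The adaptor Sh2b2, also at 0 counts in IgG RIT, had 7 to 117 counts in TBI, a level at least 14.3-fold higher than the IgG RIT floor (adjusted p 0.0420). The RNA-binding protein gene Stau2, likewise at 0, had 11 to 199 counts in TBI, at least 30.8-fold above that floor (adjusted p 0.0396). TBI replicate 6 held the fewest counts of Sh2b2 and Stau2, and at 2.44 CPM of Cd274 it was within the 1.06 to 4.72 CPM of the other TBI libraries. Cd274 lost its call in 3 of 8 leave-one-out fits (adjusted p up to 0.0546), without IgG RIT replicates 1 or 2 or TBI replicate 3, and Sh2b2 and Stau2 in 7 of 8 (up to 0.123 and 0.117). Cyp11a1, the enzyme that starts steroid synthesis, had 0, 4 and 4 counts in IgG RIT and 48 to 322 in TBI, against 47.4 CPM or more in untreated libraries. Cpz, a carboxypeptidase, had 0, 1 and 0 counts in IgG RIT and 68 to 174 in TBI, and was the 1 gene of the 52 that stayed called in all 8 leave-one-out fits (adjusted p at most 0.0495).

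A further group of lower genes had IgG RIT levels above the floor. Fabp5, a carrier of fatty acids, had 33.9, 36.9 and 34.5 CPM in IgG RIT and 149, 112, 212, 133 and 101 CPM in TBI (-2.01, SE 0.27, adjusted p 0.0176). Untreated libraries had 29.2 to 40.5 CPM, so it was the TBI libraries that stood apart, replicate 6 included. Gdf3, a ligand of the TGF-beta family, had 10.1 to 14.3 CPM in IgG RIT, 34.5 to 64.6 CPM in TBI and 17.5 to 22.1 CPM in untreated libraries (-1.999, SE 0.32, adjusted p 0.0333). The NAD kinase gene Nadk had 31.1 to 32.5 CPM in IgG RIT and 50.7 to 158 CPM in TBI (-1.83, SE 0.31, adjusted p 0.0381), here with untreated libraries at 101 to 121 CPM. Tspan14, a tetraspanin, had 20.0 to 27.5 CPM and 56.5 to 82.7 CPM (-1.70, SE 0.23, adjusted p 0.0176), and TBI replicate 6, at 78.3 CPM, was among the higher TBI libraries. Ergic1, a protein of traffic between endoplasmic reticulum and Golgi (-1.82, SE 0.33, adjusted p 0.0473), the mitochondrial ribosome factor Ptcd3 (-1.498, SE 0.26, adjusted p 0.0381) and the peptidase Dpp3 (-1.32, SE 0.23, adjusted p 0.0427) were lower with replicate 6 as the lowest TBI library. Fabp5 and Tspan14 lost their calls only without IgG RIT replicates 1 or 2 (adjusted p up to 0.0568 and 0.0575). Gdf3, Nadk, Ergic1, Ptcd3 and Dpp3 each lost theirs in 7 of 8 leave-one-out fits, with adjusted p up to 0.118 to 0.147, and held them without TBI replicate 6.

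Podxl, the sialomucin podocalyxin of progenitors and endothelium, had 1.91, 1.94 and 4.99 CPM in IgG RIT, 63.1, 34.6, 60.7, 53.6 and 24.2 CPM in TBI, and 0 counts in all 4 untreated libraries. The groups did not overlap. With all TBI libraries it was not called (-4.00, SE 0.85, adjusted p 0.0778), and without replicate 6 it was (-4.16, SE 0.87, adjusted p 0.0233). Without that replicate the call was lost on leaving out IgG RIT replicates 1 or 2 or TBI replicates 1, 4 or 5 (adjusted p 0.0619 to 0.0905).

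**Figure D2:**
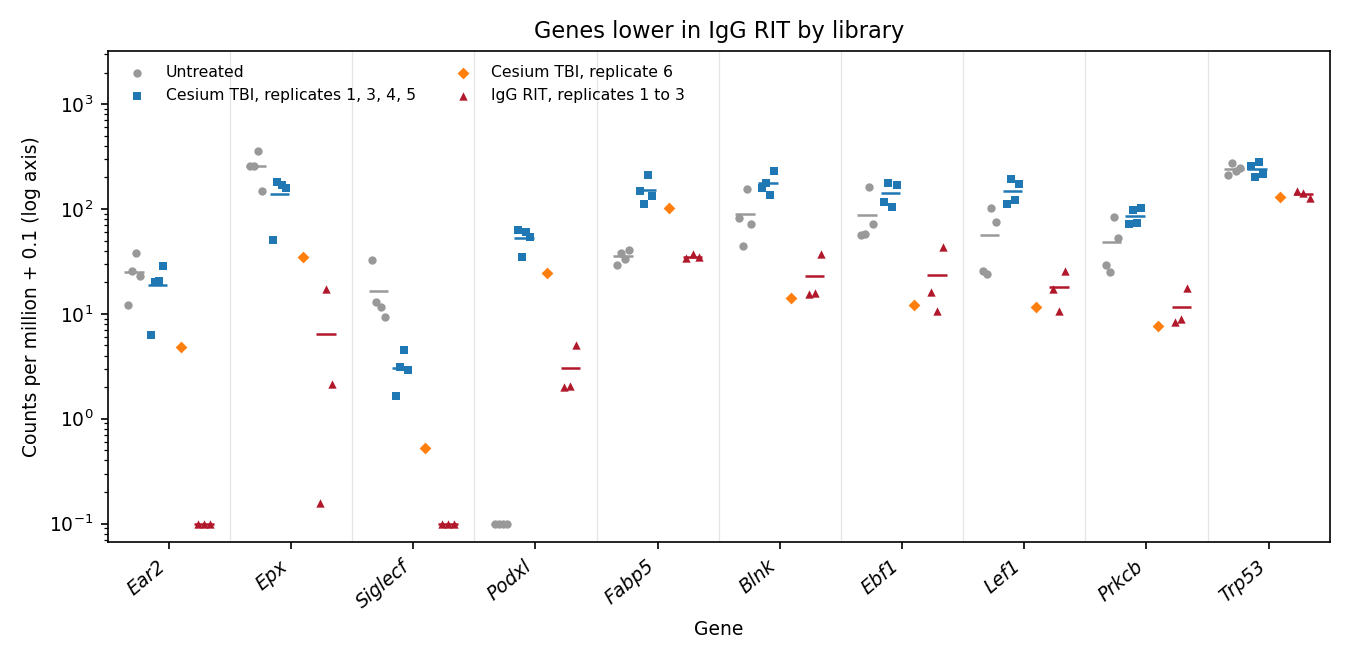
CPM plus 0.1 (log axis) of 10 genes that were called lower after IgG RIT with or without TBI replicate 6; points at the bottom are libraries with 0 counts and symbols are as in the plot of interferon genes. Ear2 and Siglecf are at 0 in all IgG RIT libraries, and Fabp5 is higher in all TBI libraries than in untreated and IgG RIT libraries. Blnk, Ebf1, Lef1 and Prkcb are as low in TBI replicate 6 as in IgG RIT.

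Without TBI replicate 6, 2025 of 21446 tested genes were called (9.44%), 806 higher (3.76%) and 1219 lower (5.68%) after IgG RIT. All 52 genes above were among them, in the same direction. Groups did not overlap for 3367 higher (15.7%) and 5368 lower genes (25%). The split of the calls depended on the scaling: 39.8% of called genes were higher with TMM factors, 52.1% with median-of-ratios factors and 11.0% without factors. The count was 1007, 1114 and 1499 without IgG RIT replicates 1, 2 and 3, and 1036, 1299, 1259 and 1207 without TBI replicates 1, 3, 4 and 5. With the erythroid covariate 0 genes were called (1712 at an unadjusted p under 0.05).

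Of 29 erythroid genes 8 were called higher, against 3.76% of all genes, and 0 lower without TBI replicate 6. Higher without overlap were 28, against 15.7% of all genes. The median log2 fold change was 1.71, against -0.20 over all tested genes. With all TBI libraries 0 were called, and 9 were higher without overlap. Hbb-bs, an adult beta globin, had 61160 to 66280 CPM in IgG RIT and 6673 to 12750 CPM in the 4 TBI libraries (2.72, SE 0.45, adjusted p 0.00527); TBI replicate 6 had 78720 CPM. Alas2, the first enzyme of haem synthesis in red cells, had 6720, 4956 and 4994 CPM in IgG RIT and 677 to 1214 CPM in the 4 TBI libraries (2.57, SE 0.47, adjusted p 0.00814), with 6880 CPM in replicate 6. The globin and Alas2 levels of TBI replicate 6 were thus at or above those of IgG RIT. Globin copies are near-identical, and their single values are uncertain in that respect. Of 36 genes of haem synthesis and iron 13 were higher and 1 lower, and of 30 genes of late red cell maturation 14 were higher and 0 lower. Bpgm, which makes the red cell metabolite that lowers the oxygen affinity of haemoglobin, had 628 to 1484 CPM and 106 to 197 CPM (2.67, SE 0.45, adjusted p 0.00551), with 1511 CPM in replicate 6. Of the transcription factors of red cell precursors, Klf1 and Gata1 were not called. Klf1 had 1637 to 1768 CPM in IgG RIT and 777 to 840 CPM in the 4 TBI libraries (1.09, adjusted p 0.632). Gata1 had 604 to 611 and 362 to 450 CPM (0.62, adjusted p 0.762), with no overlap for either. Tal1, another such factor, was called without TBI replicate 6. Erfe, the hormone erythroferrone of stimulated precursors, had 57.7 to 113 CPM in IgG RIT and 40.8 to 62.4 CPM in the 4 TBI libraries, which overlapped, against 3.53 CPM or less in untreated libraries. With the erythroid covariate Hbb-bs (-0.032), Alas2 (-0.57) and Bpgm (-0.11) turned sign.

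Of 20 genes of a B lineage list 9 were called lower and 0 higher without TBI replicate 6, against 5.68% and 3.76% of all genes. The median log2 fold change was -2.46. With all TBI libraries 0 were called and the median was -2.19. The called genes were Rag1, Pax5, Cd79a, Vpreb3, Ebf1, Cd79b, Igll1, Vpreb1 and Blnk, which act in the pro-B and pre-B stages. Ebf1, the transcription factor that sets B cell fate, had 16.2, 10.6 and 42.9 CPM in IgG RIT and 104 to 178 CPM in the 4 TBI libraries (-2.61, SE 0.54, adjusted p 0.0132), with 12.1 CPM in replicate 6. Vpreb1, part of the surrogate light chain of the pre-B receptor, had 34.2 to 84.8 CPM and 249.9 to 441 CPM (-2.79, SE 0.58, adjusted p 0.0134), with 53.5 CPM in replicate 6. Blnk, the linker of that receptor, had 15.2 to 36.9 CPM and 137 to 231 CPM (-2.95, SE 0.69, adjusted p 0.0225). The signalling genes Prkcb (-2.90), Dock2 (-2.88), Lef1 (-3.08) and Tbc1d10c (-3.31) were called lower too. The summed B lineage list overlapped between the groups, at 3720 to 4814 CPM and 4411 to 7046 CPM. Ptprc, the gene of CD45 on which blood cells were sorted out, had 4.52 to 14.3 CPM in IgG RIT, 32.6 to 48.3 CPM in the 4 TBI libraries and 5.10 CPM in replicate 6 (not called, adjusted p 0.316 without replicate 6). The part of residual blood cells in these lower genes was not tested. Ebf1 lost its call without IgG RIT replicate 1 (adjusted p 0.0611), Vpreb1 without IgG RIT replicates 1 or 2 (up to 0.0620), Blnk without these or TBI replicate 5 (up to 0.0907), Dock2 in 5 of 7 leave-one-out fits and Lef1 in all 7 (up to 0.164), whereas Prkcb and Tbc1d10c kept theirs.

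**Figure D3:**
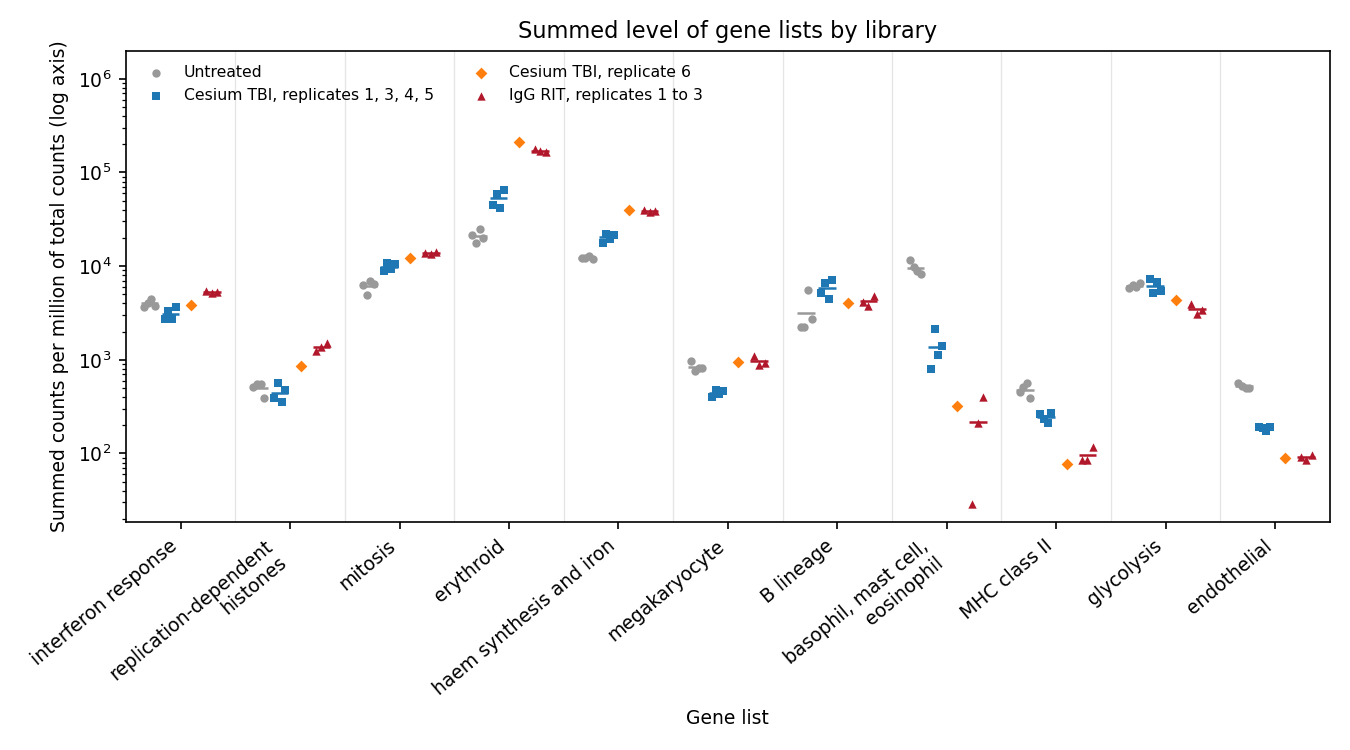
Summed CPM, on total counts (log axis), of 11 gene lists in each library; bars are group means and symbols are as in the plot of interferon genes. The interferon response sum is 5137 to 5441 CPM in IgG RIT, 2714 to 3812 CPM in all TBI libraries and 3700 to 4512 CPM in untreated libraries. Rsad2 and Ube2l6 make up a large part of that sum in IgG RIT, so it does not show a rise across the list. The erythroid sum of TBI replicate 6 is above that of IgG RIT.

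The position of TBI replicate 6, which took no part in these calls, was read for each of the 2012 genes that were called without it and did not overlap. In 1023 of them (50.8%) it lay within or past the range of IgG RIT, in 863 between the groups, and in 126 (6.26%) within or past the range of the other TBI libraries. On a scale with 0 at the mean log2 CPM of the other TBI libraries and 1 at that of IgG RIT, the median position was 0.82. The medians of gene groups ran from 0.31 to 1.14 in those plotted. All 8 erythroid genes and 13 of 14 late red cell genes were at the IgG RIT level, with median positions of 1.12 and 1.14, as were 8 of 9 B lineage genes (1.02). Of the 14 higher interferon genes 1 was at the IgG RIT level, 9 between and 4 at the TBI level, with a median position of 0.31. The 1 gene at the IgG RIT level was Ube2l6, which is on the red cell list too, and the 4 at the TBI level included Irf9 and Ifi27. Mitosis genes (0.75, 10 genes), histones (0.72, 6 genes) and haem and iron genes (0.97, 13 genes) lay nearer to IgG RIT, and the 5 lower genes of the basophil, mast cell and eosinophil list nearer to TBI (0.31). TBI replicate 6 is 1 library, and the positions are a description.

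**Figure D4:**
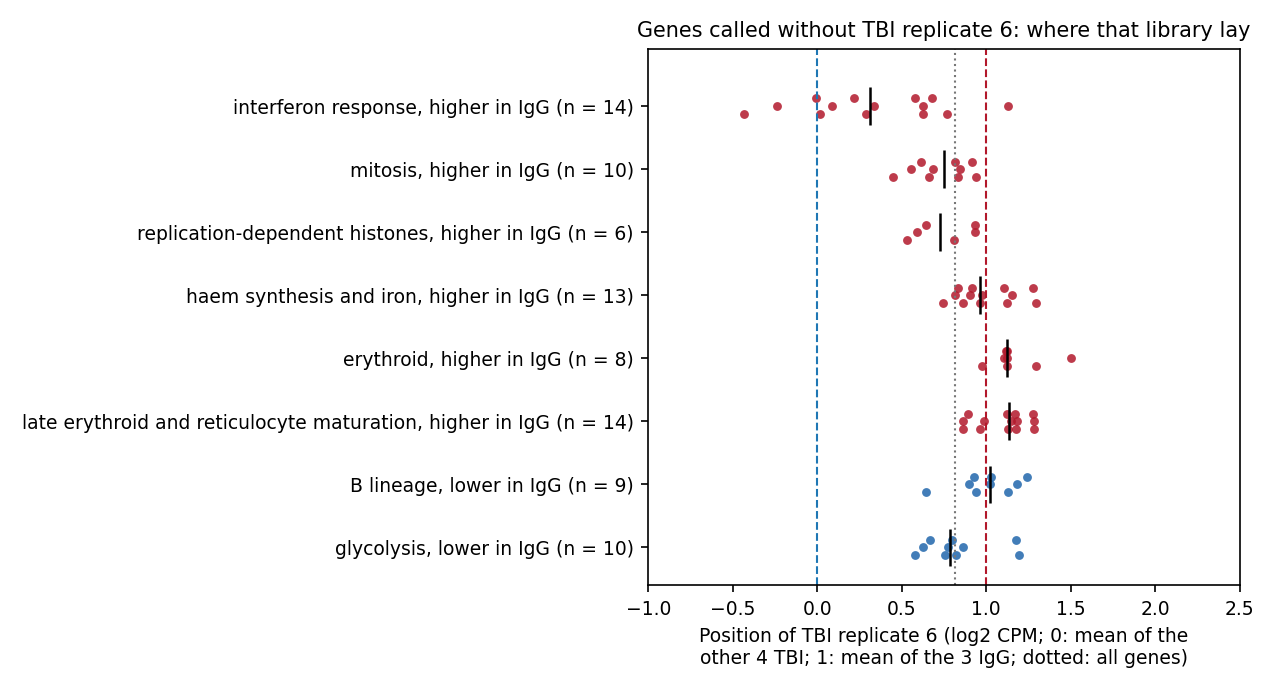
Position of TBI replicate 6 on the log2 CPM scale, from 0 at the mean of the other 4 TBI libraries (blue dashed line) to 1 at the mean of the 3 IgG RIT libraries (red dashed line), for genes called without it; each point is a gene, black bars are medians and the dotted line is the median over all 2012 genes (0.82). Interferon genes have a median of 0.31 and erythroid genes of 1.12.

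Without TBI replicate 6, 3.76% of all genes were called higher and 5.68% lower. Of 22 glycolysis genes 10 were then lower and 1, the red cell gene Bpgm, higher, with a median log2 fold change of -0.98. With all TBI libraries 0 genes of the glycolysis, mitochondrially encoded, nuclear respiratory chain, antioxidant and stress response lists were called. Ldha, which makes lactate, had 334 to 391 CPM in IgG RIT and 822 to 1537 CPM in the 4 TBI libraries (-1.71, SE 0.22, adjusted p 0.00190), with 521 CPM in replicate 6. Pkm, the last enzyme of the pathway, had 38.1 to 86.3 CPM and 151 to 217 CPM (-1.57, SE 0.27, adjusted p 0.00636). Of 13 mitochondrially encoded genes 6 were higher and 0 lower (median 1.01), among them mt-Co1, a subunit of cytochrome oxidase, with 3270 to 4051 CPM in IgG RIT and 1076 to 1635 CPM in the 4 TBI libraries (1.59, SE 0.17, adjusted p 0.000935). Of 33 respiratory chain genes of the nucleus 1 was higher and 1 lower, below the share of all genes in each direction. Of 26 antioxidant genes 5 were higher and 1, Prdx1, lower; Gpx1 and Prdx2, both abundant in red cells, had 15390 to 15980 and 5633 to 6146 CPM in IgG RIT and 3249 to 4596 and 1745 to 2214 CPM in the 4 TBI libraries. TBI replicate 6, rich in erythroid RNA, was at 17030 and 6552 CPM of the same 2 genes, and both lost their calls in each of the 7 leave-one-out fits (adjusted p up to 0.0981 and 0.115). In the stress response list Ppp1r15a, which restores translation after stress (2.41, SE 0.54, adjusted p 0.0183), Ddit3 and Atf4 were higher and Phgdh, Pdia4 and Pdia6 lower; Ppp1r15a lost its call without IgG RIT replicate 1 or TBI replicates 1 or 4 (adjusted p up to 0.0647) and turned sign with the erythroid covariate (-0.42). The direction of the medians of the antioxidant (0.13) and stress response (0.21) lists turned without scaling factors (-0.33 and -0.26).

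Targets of p53, the transcription factor activated by DNA damage, were called in both directions without TBI replicate 6. Of 33 tested genes 0 were called with all TBI libraries. Without replicate 6, 5 were higher and 5 lower, against 3.76% and 5.68% of all genes. The list includes Trp53, which encodes p53 itself and is not one of its targets. The higher genes were Btg2, Gadd45a, Bbc3, Sesn1 and Ptp4a3, and the lower ones Aen, Ei24, Ccng1, Trp53 and Pmaip1. Gadd45a, a growth arrest and repair gene, had 333 to 573 CPM in IgG RIT, 71.2 to 127 CPM in the 4 TBI libraries and 379 CPM in replicate 6 (1.99, SE 0.42, adjusted p 0.0151). Ccng1, cyclin G1, had 45.6, 33.7 and 42.0 CPM in IgG RIT and 78.3 to 91.1 CPM in the 4 TBI libraries (-1.02, SE 0.18, adjusted p 0.00648), and with replicate 6, at 56.1 CPM, it was not called (-0.92, SE 0.20, adjusted p 0.0674). Trp53 itself had 126 to 149 CPM and 204 to 281 CPM (-0.79, SE 0.17, adjusted p 0.0154). Gadd45a lost its call without IgG RIT replicate 1 or TBI replicate 1 (up to 0.0634), Trp53 without IgG RIT replicates 2 or 3 (up to 0.0567), Bbc3 in 4 of 7 leave-one-out fits (up to 0.118), and Btg2 and Ptp4a3 in all 7 (up to 0.138 and 0.109). With the erythroid covariate Bbc3 (-0.76), Btg2 (-1.25), Ptp4a3 (-0.32) and Trp53 (0.22) turned sign. Cdkn1a, the cell cycle inhibitor p21, had 31.3 to 45.2 CPM in IgG RIT and 26.7 to 51.2 CPM in the 4 TBI libraries, which overlapped, and 115 CPM in replicate 6 (adjusted p 0.529 with and 0.937 without it). Mdm2, the ligase that limits p53, had 65.3 to 81.1 CPM in IgG RIT and 58.2 to 77.7 CPM in the 5 TBI libraries, which overlapped too (adjusted p 0.943).

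Markers of other marrow cells and of antigen presentation were compared without TBI replicate 6, where 3.76% of all genes were called higher and 5.68% lower. With all TBI libraries 0 genes of the stromal, endothelial, haematopoietic, macrophage and both MHC lists were called. Of 25 stromal genes 6 were called higher and 0 lower: Igfbp5, Lepr, Cxcl12, Kitl, Foxc1 and Pdgfrb, most of them known from reticular cells that support blood stem cells. Lepr, the leptin receptor that marks these cells, had 32.9 to 43.0 CPM in IgG RIT and 8.64 to 11.7 CPM in the 4 TBI libraries (1.91, SE 0.19, adjusted p 0.00076), with 42.4 CPM in replicate 6 and 65.6 CPM or more in untreated libraries. Of the 25 stromal genes 16 had a positive log2 fold change. Without overlap 7 were higher and 2 lower, against 15.7% and 25% of all genes. The summed stromal list overlapped, at 595 to 1649 CPM in IgG RIT and 1378 to 3046 CPM in the 4 TBI libraries, so the sum was not higher in IgG RIT. Of 19 tested endothelial genes 3 were lower, Egfl7, Pecam1 and Erg; Pecam1, which platelets and blood cells also carry, had 3.59 to 8.99 CPM and 14.4 to 28.4 CPM (-1.83, SE 0.45, adjusted p 0.0267). Of 25 haematopoietic genes 3 were lower, Gata2, Lcp1 and Vav1. Of 23 genes of MHC class I and peptide loading 2 were higher and 4 lower: H2-T23, a nonclassical class I gene, had 216 to 327 CPM in IgG RIT and 46.3 to 78.0 CPM in the 4 TBI libraries (2.02, SE 0.22, adjusted p 0.000935), whereas Psmb10, an immunoproteasome subunit, was called lower (-1.27, SE 0.36, adjusted p 0.0497). Psmb10 lost its call in all 7 leave-one-out fits (adjusted p up to 0.163) and turned sign with the erythroid covariate (0.15). Pecam1 lost its call in 5 of 7 (up to 0.0963) and Egfl7 in all 7 (up to 0.149). Cxcl12 kept its call in 3 of 7 (adjusted p up to 0.101), and Lepr and H2-T23 kept theirs in all. Of 14 MHC class II genes 1 was called lower, a share near that of all genes. Lower without overlap were 8 and higher 0, against 25% and 15.7% of all genes, with a median of -1.20. The list summed to 84.6 to 118 CPM in IgG RIT and 210 to 272 CPM in the 4 TBI libraries. Replicate 6, at 77.9 CPM, lay below both. Of the 23 class I genes 10 were lower and 2 higher without overlap. Their sum was 3170.7 to 3926.9 CPM in IgG RIT and 4948.5 to 5710.4 CPM in the 4 TBI libraries. Replicate 6 was again below both, at 2782.8 CPM. The macrophage list, whose cells also respond to interferon, summed to 144 to 204 CPM in IgG RIT and 170 to 186 CPM in the 4 TBI libraries, and 0 of 18 genes were called.

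Without TBI replicate 6, medians near 0 were those of ribosomal proteins (0.03, 0 of 42 called), DNA repair (-0.06, with H2afx higher and Parp1 lower of 35), respiratory chain genes of the nucleus (-0.07) and the BCL2 family (-0.13, 2 higher and 3 lower of 26), against -0.20 over all genes. The DNA replication list (0.25) held 2 higher genes of 32, Tk1 and Cdc45. Over all genes 3.76% were called higher and 5.68% lower. Medians of the ribosomal, DNA replication, macrophage and neutrophil lists turned negative without scaling factors (-0.42, -0.22, -0.23 and -0.19), and those of DNA repair and of the nuclear respiratory chain turned positive with median-of-ratios factors (0.06 and 0.05). The medians of interferon, erythroid, histone, mitosis and mitochondrially encoded lists stayed positive, and those of B lineage, glycolysis and eosinophil lists negative, under both.

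**Figure D5:**
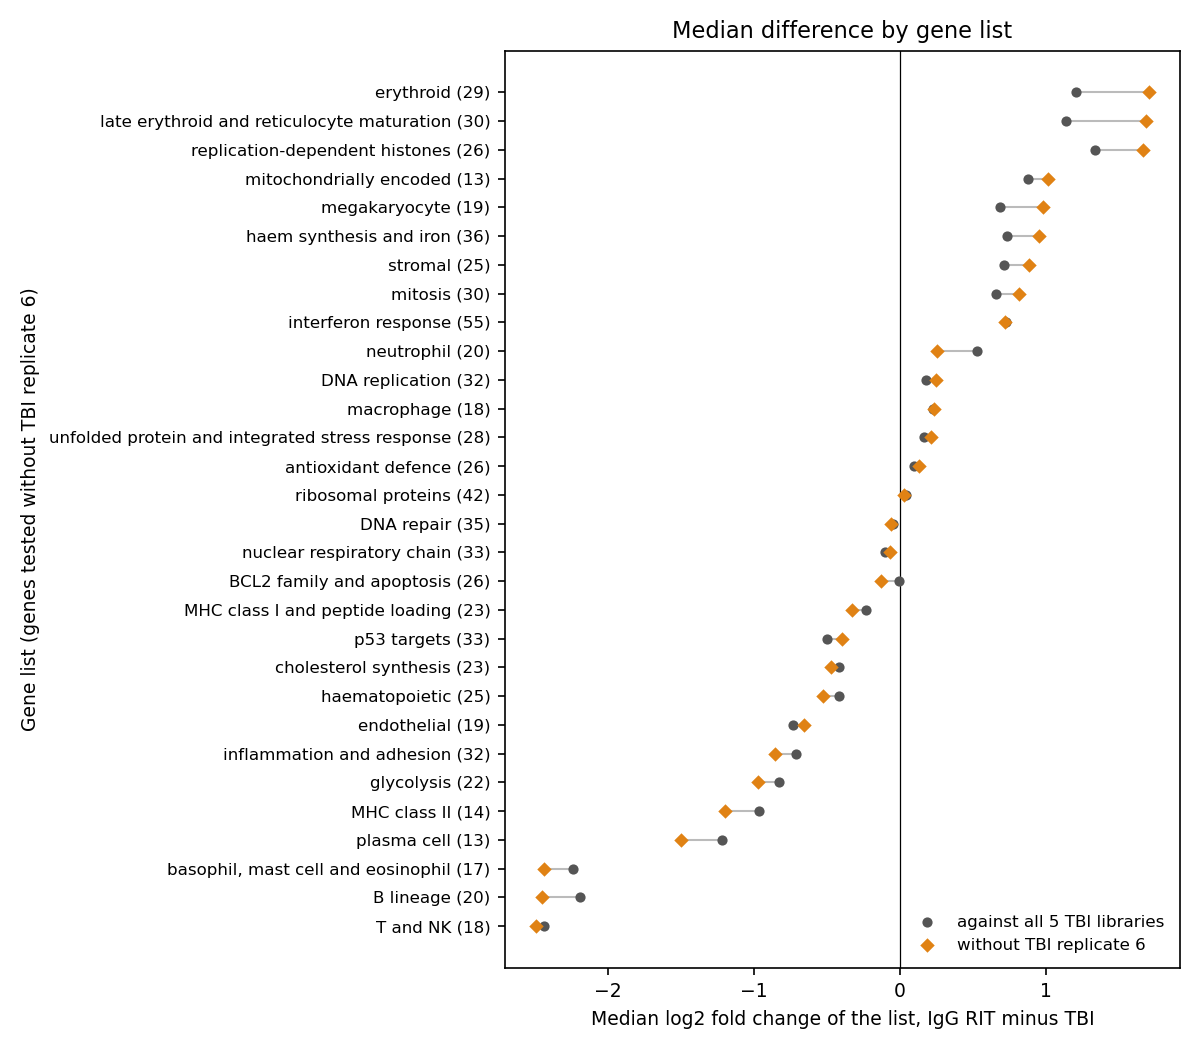
Median log2 fold change (IgG RIT minus TBI) of each gene list, against all 5 TBI libraries (grey circles) and without TBI replicate 6 (orange diamonds), with the number of genes tested in brackets. The interferon response median is 0.73 and 0.72, the erythroid median 1.21 and 1.71, and the B lineage median -2.19 and -2.46.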

How the data were processed

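Libraries were made by the authors with a Qiagen extraction kit, SMART-Seq cDNA amplification and Nextera XT, per the labels' protocols. The authors deposited 1 table of raw gene counts (55335 genes); total counts and other library values are given in the report. The submitters' processing notes name STAR 2.7.7a, FastQC 0.11.9, edgeR 3.36.0 and the build hg38, a human build, while 54587 of the 55335 identifiers, all of mouse, were found in the GENCODE mouse annotation of GRCm38, each at the same coordinates; coordinates are given on that build. The counter and its use of strand are not given in the sources used here. Amplification products were counted without molecular identifiers, so floors cover counting error only.

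From the counts, edgeR 4.0.16 (R 4.3.3) kept genes by filterByExpr (minimum count 10, minimum total 15), computed TMM factors and fitted robust quasi-likelihood models with 1 coefficient per group to all 14 libraries, or to 13 without TBI replicate 6, contrasting IgG RIT with TBI. SE was taken from the log2 fold change and the square root of its F statistic. CPM of genes use TMM-scaled sizes, and sums of lists total counts. Log2 CPM for correlations and components used a prior count of 2.

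Members and the 31 gene lists were chosen with earlier results of these data known. Genes were named by rule: called with all TBI libraries (up to 15 per direction at a mean log2 CPM of 1 or more, others of the 52 as needed); without TBI replicate 6, the 10 largest changes per direction without overlap at a mean log2 CPM of 3 or more, and up to 4 per list; and 18 fixed genes. Results of a few genes are not reported here. Other called members of lists were named after their values were seen. Leave-one-out limits of the 132 named genes called without TBI replicate 6 were computed after seeing the data, and 91 kept their call in all 7 fits. On simulated counts, 23 of 100 genes changed 4-fold and 61 of 100 changed 16-fold were recovered with all libraries (21509 genes, 3 false calls), and 20 and 64 of 100 without TBI replicate 6 (21446 genes, 2 false calls). Replicate numbers were shared by 2 pairs only, whose deviations from the group means correlated at -0.03 and 0.11, so they were not taken to pair samples. Alternatives were other scaling, no filter, DESeq2 1.42.0, limma 3.58.1 voom with sample weights, fewer groups, a replicate block, an erythroid covariate, a library number term, leave-one-out fits and, chosen after seeing the data, a term for Ddx3y.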

Additional observations from a re-analysis of the deposited data

Results flagged for a closer look

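Each value was tested for 1 library far from the others of its group, by the gap to the nearest library over the group's range, against Dixon's 95% critical value for the group's size. Of 178 values 23 (12.9%) passed, and chance gives about 1 in 20 for independent values. Values of genes and of lists that hold them are not independent, so no comparison with chance is drawn. IgG RIT, with 3 libraries, was not tested.

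TBI replicate 6 was the library apart in 18 of the 23. It was known beforehand to be rich in erythroid RNA, so its red cell, haem and iron values restate that. Among summed lists the ratios were 0.803 for endothelial genes, 0.863 for erythroid, 0.802 for late red cell maturation, 0.852 for megakaryocyte, 0.740 for MHC class I and peptide loading, 0.805 for haem synthesis and iron, 0.756 for cholesterol synthesis, 0.860 for antioxidant defence and 0.740 for inflammation and adhesion. Among genes they were 0.755 for H2afx, 0.740 for Gm44335, 0.800 for Stard8, 0.913 for Alas2, 0.724 for Cdkn1a, 0.912 for Klf1, 0.789 for Tfrc, 0.793 for Erfe and 0.761 for Mki67. The interferon response sum and the 4 interferon genes called with all TBI libraries were not among them.

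TBI replicate 5 stood apart in Ccnjl (0.714). Within the 4 other TBI libraries, replicate 4 stood apart in Trp53i11 (0.846), replicate 3 in mt-Co1 (0.889), and replicate 1 in mt-Atp6 (0.966) and Fdft1 (0.912).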

How the results depend on the processing

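With all TBI libraries 52 genes were called. Without scaling factors 203 were called, with DESeq2 2096, and with limma voom and sample weights 6447. From IgG RIT and TBI libraries alone 850 were called, and without the CD45 RIT libraries 2495. The library number term set IgG RIT against TBI replicate 6 alone, so its count of calls is not given. Median-of-ratios factors gave 44, no filter 43, the erythroid covariate 39 and the Ddx3y term 37. Leave-one-out fits gave 2 to 2025. With the replicate block 69 were called, 47 higher and 22 lower, of which 10 were among the 52. Replicate numbers 5 and 6 occurred in TBI only, so this fit took both of those TBI libraries out of the contrast. Without TBI replicate 6 (2025 genes), 3423 were called without scaling factors, 4137 with DESeq2, 6661 with voom, 6402 from IgG RIT and TBI libraries alone, 5951 without the CD45 RIT libraries, 69 with the replicate block, and 0 with the erythroid covariate (1712 at an unadjusted p under 0.05). Leave-one-out fits gave 1007 to 1499, and the Ddx3y term 1621. The cause was not tested, except that the erythroid sums of the groups do not overlap without TBI replicate 6, so covariate and treatment can hardly be told apart there. Median-of-ratios factors moved the median of all log2 fold changes by 0.09 with all TBI libraries and by 0.12 without replicate 6, and no factors by -0.39 and -0.47.

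Irf7 was 1.80 (adjusted p 0.0460) with the erythroid covariate and 1.85 with the number term, which compared IgG RIT with TBI replicate 6 alone. Over all its alternatives Irf7 was 1.80 to 2.86, the highest with the replicate block. The interferon median with all TBI libraries was 0.77 with the covariate and 0.92 with the number term, and the erythroid median 0.16 and 0.00. Among 2728 values of single genes with all TBI libraries 1996 kept direction and call, 447 lost and 285 gained a call, and 0 called genes turned. Without replicate 6, of 2446, 1971 kept both, 436 lost and 21 gained a call, and 18 turned, all with the erythroid covariate: Irf9 -0.095, Alas2 -0.57, Cd36 -0.87, Bpgm -0.11, Hbb-bs -0.032, Isg15 -0.56, Rsad2 -0.011, Bcl2l1 -0.24, Psmb10 0.15, Bbc3 -0.76, Btg2 -1.25, Ptp4a3 -0.32, Anln -0.37, Slc25a37 -0.12, Fech -0.33, Fdft1 -0.063, Ppp1r15a -0.42 and Trp53 0.22; none was called there.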
